A study of Arabidopsis thaliana with 7 samples.

Results

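Class XI myosins are plant motor proteins that walk along actin filaments and carry organelles and vesicles through the cell. The motor head binds actin and uses ATP, the neck binds calmodulin-like light chains, and the tail holds the cargo. Pollen tubes, which grow at their tip, depend on this transport for the streaming of their cytoplasm and the delivery of wall material. The genes described here are the 5 of the family whose symbol (XIC, XIE, XIJ, XIH or XI-I) stood alone in the annotation of a probe set on the Arabidopsis ATH1 array. Each was measured by 1 probe set, so the 5 genes are 5 of 13513 probe sets listed with a single gene and 5 of 22746 on the array without controls. The annotation gave 8730 probe sets no gene name and 503 several, so genes can have probe sets that were not matched. The symbols of the other 8 class XI genes were not matched, and these genes were not analysed here. XIC (AT1G08730), XIE (AT1G54560) and XIJ (AT3G58160) are known as pollen-type motors, and the first pair is known to act redundantly in pollen tube growth. XIH (AT4G28710) and XI-I (AT4G33200) are set against them, and XI-I is known to tie the nuclear envelope to actin and to move nuclei.

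Spores of unmodified Landsberg erecta plants were purified at successive stages of male gametophyte development, each isolate being pooled from more than 100 plants grown at 21°C under 16 h of light. The stages were microspores with a single nucleus (UNM), pollen of the bicellular stage (BCP), pollen of the tricellular stage (TCP) and mature pollen grains (MPG), with 2 arrays of independently grown plants for each of the first 3 and 1 array for MPG. By the study's methods the first 3 came from ground inflorescences without open flowers, separated on density gradients. Mature pollen came from open flowers by another procedure. In comparisons with MPG, stage and way of isolation cannot be told apart. The value of a probe set is its signal, a linear intensity on a scale where every array has a trimmed mean of 100. Testing was done with limma, in 1 fit over the 7 arrays, on the 14364 probe sets that reached 40 on any array, and all 5 myosin genes were among them. An adjusted p of 0.05 after Benjamini-Hochberg correction over all tested probe sets was the threshold, and changes are given on the log2 scale of signals floored at 20, which no myosin signal reached. The study describes 2 biological replicates for every stage, MPG included, but the series used here holds 1 MPG array. This array therefore has no replicate here and was assumed to vary like the others.

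Marker genes were measured for late pollen and for tissues outside the male gametophyte, and none for the microspore or bicellular stage. The summed signal of the late pollen receptor kinases ANX1 and ANX2, 2 of 11 late markers listed, was 12.2 to 13.9 at UNM, 19.3 to 45.4 at BCP, 1923 to 1943 at TCP and 4838 at MPG. Tapetal markers, from the anther layer that feeds the spores, summed to 66.8 to 84.1 at UNM, 27.6 to 36.7 at BCP, 38.9 to 45.4 at TCP and 18.5 at MPG over 3 of 14 genes. Meiocyte markers summed to 36.0 to 92.0 over all arrays (2 of 7 genes) and the light-harvesting gene LHCB4.1 of green tissue, 1 of 12, read 11.7 to 65.5. The tapetal genes A9 and AMS and the meiocyte gene SPO11-1 stayed under 40 on every array and were not tested. Signals this low cannot show whether a transcript was present. The study's microscopy found no contaminating sporophytic cells in the isolates. By the study's counts the UNM isolate held a few tetrads and bicellular grains, and the BCP isolate some microspores, tetrads and tricellular grains. The TCP isolate held some bicellular pollen and the MPG isolate a little aborted pollen. In these populations a change in the share of a cell type and a change in RNA per cell cannot be told apart.

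The 3 pollen-type myosin mRNAs were higher at TCP than at UNM, whereas XIH and XI-I passed the test in no comparison. On the MPG array XIC and XIE were lower than at TCP and XIJ was not, a difference that was not tested itself. The falls of XIC and XIE passed the test only with both TCP arrays. Between microspores and tricellular pollen XIC, XIE and XIJ all rose, 3 of 5 genes. Of all tested probe sets 60.6% were called in this comparison, 20.9% higher and 39.7% lower at TCP. By limma 0 of the 5 genes were called lower there, and 0 were lower at an unadjusted p under 0.05. The median log2 change, TCP over UNM, was 2.55 for the 3 pollen-type genes and -0.34 for the other 2. Over all tested probe sets it was -0.38. The genes and their grouping were chosen with earlier results of these data known, so this split of medians is a description only. Without overlap between arrays, the 3 pollen-type genes were higher at TCP than at UNM, as 29.5% of probe sets were, and XI-I was lower, as 50.5% were.

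**Figure D1:**
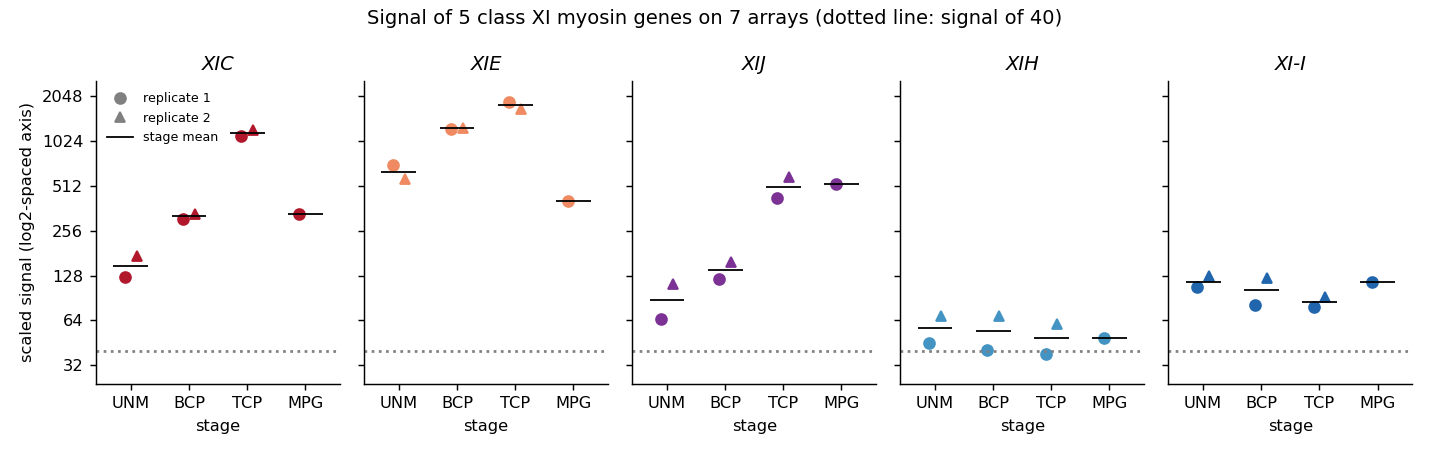
Scaled signal of each class XI myosin gene (vertical axis, log2-spaced) on the 7 arrays at UNM, BCP, TCP and MPG; circles are replicate 1, triangles replicate 2, and black lines stage means. XIC and XIE peaked at TCP at 1161 and 1781, XIJ stayed high at MPG at 527, and XIH and XI-I kept between 38.1 and 127 throughout.

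XIC had the largest rise of the 5 genes between microspores and tricellular pollen. The UNM arrays read 124 and 174, the BCP arrays 307 and 332, the TCP arrays 1105 and 1216 and the MPG array 332. Arrays of successive stages did not overlap, but the MPG array fell within the range of the BCP arrays. The TCP mean was 1161 ± 78.5 and the BCP mean 320 ± 17.7 (SD, n = 2 each), a rise of 3.63-fold (1.86 ± 0.22 as log2 change and its standard error, with a limma adjusted p of 0.00089). Against the UNM mean of 149 ± 35.1 the rise at TCP was 7.88-fold (2.98 ± 0.22, adjusted p = 0.00012). In mature pollen the signal was 3.49-fold lower than in tricellular pollen (-1.80 ± 0.27, adjusted p = 0.018) and 2.26-fold higher than in microspores (1.17 ± 0.27, adjusted p = 0.011). Without TCP replicate 1 or 2 the fall to MPG kept its size, at -1.87 and -1.73, and did not pass the test (adjusted p = 0.091 and 0.093). With scaling from spiked controls, chosen after seeing the data, the rise at MPG over UNM was 1.04 on the log2 scale and did not pass (limma adjusted p = 0.50).

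The first step of the XIC rise, BCP over UNM, was 2.17-fold (log2 change 1.12, standard error 0.22), and only 3.1% of the tested probe sets had a higher change there. It did not pass the test (adjusted p = 0.073 from limma) but did with the replicate number as a block (0.044). Few probe sets were called in this comparison, 2.53% in either direction, 2.03% higher and 0.494% lower at BCP, and 0.0% without any 1 UNM, BCP or TCP array. By limma 0 of the 5 myosin genes were among them, and 2, XIC and XIE, were higher at an unadjusted p under 0.05. XIC, XIE and XIJ were higher at BCP without overlap of the arrays, as 20.6% of probe sets were, and no member was lower without overlap, as 24.1% were.

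XIE had its highest signals in tricellular pollen, like XIC, and its lowest in mature pollen. Its signals were 713 and 569 for UNM, 1234 and 1262 for BCP, 1865 and 1697 for TCP and 405 for MPG. In order of level the stages ran MPG, UNM, BCP and TCP, and no pair of them overlapped. None of the 3 steps between neighbours in that order passed the test, however. These steps were 1.57-fold between UNM and MPG (log2 change of -0.65 ± 0.23, MPG over UNM, adjusted p = 0.052), 1.96-fold for BCP over UNM (0.97 ± 0.19, 0.073) and 1.43-fold for TCP over BCP (0.51 ± 0.19, 0.063), all from limma. With the replicate block the MPG decrease against microspores (0.033) and the TCP increase over BCP (0.046) passed. Quantile normalization took the step from BCP to TCP away, with a log2 change of 0.04 (adjusted p = 0.88).

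Steps that spanned more of development did pass for XIE. The TCP mean of 1781 ± 119 was 2.79-fold above the UNM mean of 641 ± 102 (SD, n = 2 each), with a log2 change of 1.48 ± 0.19 (standard error) and a limma adjusted p of 0.0010. With scaling from spiked controls it was 1.24 and did not pass (adjusted p = 0.25). The MPG signal was 4.40-fold below the TCP mean (-2.14 ± 0.23, adjusted p = 0.011), and only 1.08% of tested probe sets had a lower change between these stages. This fall too was past the threshold only with both TCP arrays. Without TCP replicate 1 it was -2.07 (adjusted p = 0.077) and without TCP replicate 2 -2.20 (0.072).

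XIJ rose with XIC, but on the MPG array it stayed near its TCP level, where XIC was lower. Microspores gave 64.9 and 112, bicellular pollen 121 and 158, tricellular pollen 425 and 587 and mature pollen 527. The UNM and BCP arrays lay close together without overlap, and the MPG array lay between the TCP arrays. TCP averaged 506 ± 114 and BCP 140 ± 26.1 (SD, n = 2 each), a rise of 3.60-fold (1.85 ± 0.33, limma adjusted p = 0.0046). The rise over the microspore mean of 88.3 ± 33.0 was 5.87-fold at TCP (2.55 ± 0.33, adjusted p = 0.0011) and 6.19-fold at MPG (2.63 ± 0.41, adjusted p = 0.0025). Without TCP replicate 2 the adjusted p of the step from BCP to TCP was 0.0599.

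The change of XIJ between tricellular and mature pollen was 1.05-fold, with a 95% interval of 0.53-fold to 2.11-fold, MPG over TCP. The intervals for the same step were 0.18-fold to 0.45-fold for XIC and 0.15-fold to 0.34-fold for XIE. These intervals share the same MPG and TCP arrays and are no test of a difference between genes. The difference between the genes was not tested itself, since these genes were chosen with their values known and MPG has 1 array. Between UNM and BCP the XIJ change of 0.70 (log2, standard error 0.33) did not pass (adjusted p = 0.39).

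XIH was close to the minimum signal at every stage. The UNM signals were 45.4 and 68.9, those of BCP 40.7 and 68.5, those of TCP 38.1 and 60.1 and that of MPG 48.7. The arrays of all stages overlapped, and the replicates of a stage lay further apart than the stage means. The largest of the 5 comparisons was TCP over UNM, with a log2 change of -0.23 and a 95% interval of -1.16 to 0.71 (adjusted p = 0.64 from limma). With the replicate block the change was -0.23 with a standard error of 0.15 (adjusted p = 0.24). Only 1.0% of the tested probe sets had a smaller ratio between their highest and lowest stage mean than XIH, for which it was 1.17. Signals this low cannot show whether XIH mRNA was present, so the small ratio cannot be read as steady expression.

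XI-I was measured above the minimum on all 7 arrays and varied little. It measured 107 and 127 in microspores, 81.9 and 124 in bicellular, 78.3 and 92.5 in tricellular and 117 in mature pollen. Both TCP arrays lay below both UNM arrays and below the MPG array, while the BCP arrays overlapped both neighbours. The TCP mean of 85.4 ± 10.0 stood against a UNM mean of 117 ± 14.0 (SD, n = 2 each; log2 change -0.45, 95% interval -1.09 to 0.18, adjusted p = 0.18 from limma). From TCP to MPG the log2 change was 0.46, with an interval of -0.32 to 1.23 (adjusted p = 0.41). The highest and lowest stage means differed by a ratio of 1.37, against a median of 2.80 over tested probe sets, and 5.25% of these had a smaller ratio. Under quantile normalization, which puts the median change of all probe sets at 0.01 against -0.38 in the fit used here, the change between UNM and TCP was 0.04 for XI-I and 0.23 for XIH, so no direction can be read for these genes.

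The counts of members called are set here beside the shares of all probe sets. At TCP over BCP the test called 56.5% of all probe sets, 19.0% higher and 37.5% lower. XIC and XIJ were the 2 of 5 called higher, and by limma 0 were called lower, also at an unadjusted p under 0.05. Without overlap 3 members were higher, XIE included, and 0 lower, beside 28.6% and 49.0% of probe sets. With scaling from spiked controls the changes were 1.48 for XIC and 1.47 for XIJ and did not pass (limma adjusted p = 0.16 each), nor did the falls of XIC and XIE to MPG. Changes above those of XIC and XIJ were seen for 8.18% and 8.26% of tested probe sets. At MPG over TCP, where 5.02% of probe sets were called higher and 7.43% lower, 12.4% in all, XIC and XIE were called lower and 0 members higher, also at an unadjusted p under 0.05. Without TCP replicate 1 or 2 the share called was 0.0% and both member calls were lost. Without UNM replicate 1 or 2 it was 2.19% and 3.49%, and without BCP replicate 1 or 2 it was 6.57% and 6.71%, with both members called. Without overlap 1 member, XI-I, was higher and 2 were lower, beside 42.6% and 38.2% of probe sets. At MPG over UNM, with 60.5% called, 20.1% higher and 40.4% lower, XIC and XIJ were called higher and XIE, at an adjusted p of 0.052, was the 1 member lower at an unadjusted p under 0.05. Without overlap the same 2 were higher and XIE lower, beside 33.2% and 58.1% of probe sets. The medians of the pollen-type genes were 0.97 at BCP over UNM, 1.85 at TCP over BCP, -1.80 at MPG over TCP and 1.17 at MPG over UNM. Those of XIH and XI-I were -0.15, -0.19, 0.24 and -0.10 in this order, and those of all tested probe sets -0.05, -0.33, 0.00 and -0.53. The grouping was chosen with earlier results of these data known, so these medians only describe it. The comparisons share arrays, so the counts of members called are not independent of each other.

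**Figure D2:**
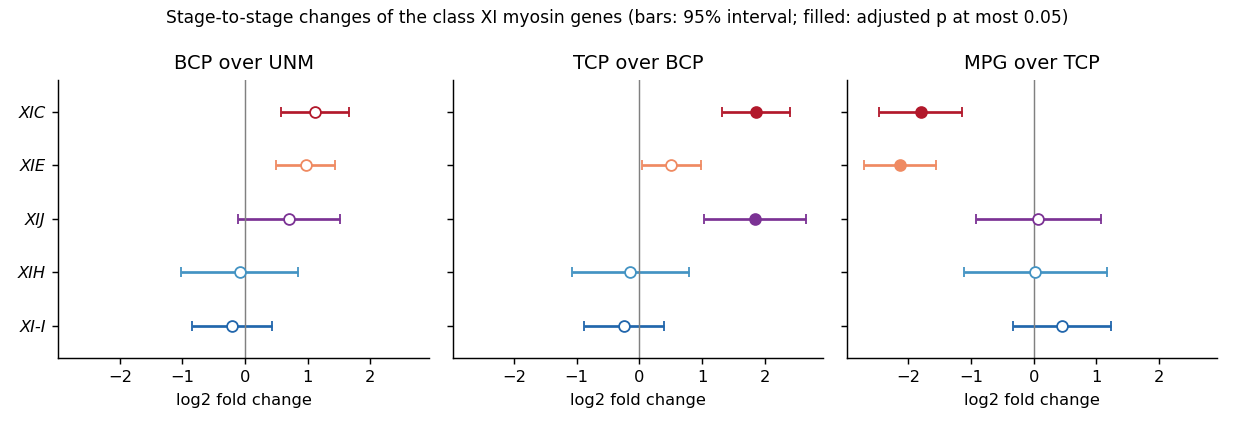
Log2 fold change of the 5 genes (horizontal axis) for BCP over UNM, TCP over BCP and MPG over TCP, with 95% intervals from limma; filled points passed an adjusted p of 0.05. XIC and XIJ rose at TCP by 1.86 and 1.85, XIC and XIE fell at MPG by 1.80 and 2.14, and every interval of XIH and XI-I spans 0.

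A profile that is highest at TCP and then drops by a ratio of at least 2 in mature pollen, as for XIC and XIE, was found for 740 tested probe sets (5.15%). The highest stage mean was at TCP for 16.2% of tested probe sets, at MPG for 25.4%, at BCP for 19.8% and at UNM for 38.6%. XIJ was highest at MPG, where its signal of 527 was above its TCP mean of 506 by less than the spread between the TCP arrays. For XIH and XI-I the highest mean was at UNM.

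**Figure D3:**
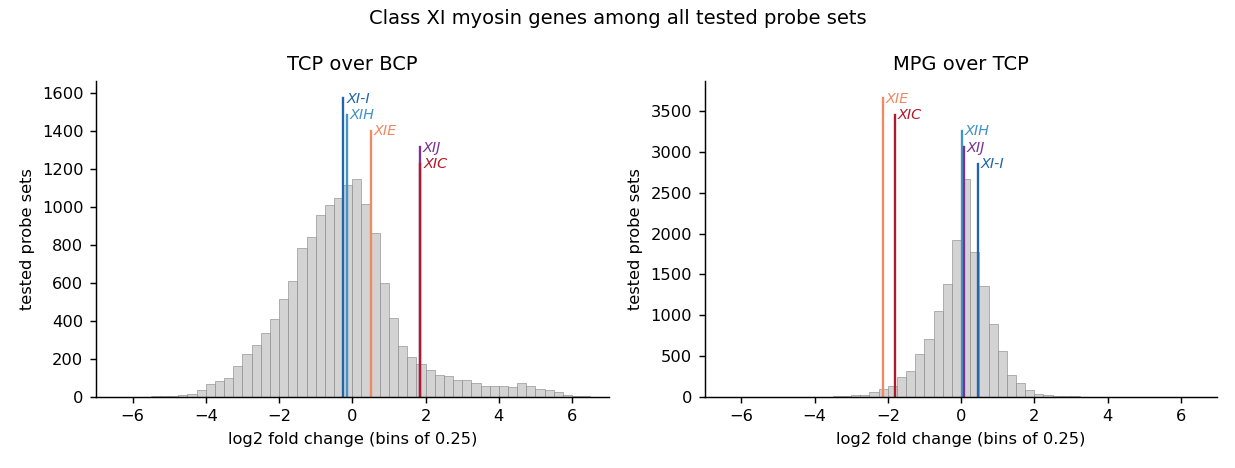
Number of tested probe sets (vertical axis) by log2 fold change in bins of 0.25 (horizontal axis) for TCP over BCP and MPG over TCP, with the 5 myosin genes as labelled lines. XIC and XIJ lie at 1.86 and 1.85 in the right tail at TCP over BCP, and XIE and XIC at -2.14 and -1.80 in the left tail at MPG over TCP.

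Differences between replicates ran the same way at each stage for most of these genes. In 4 of the 5 genes, all but XIE, replicate 2 was brighter than replicate 1 at each of the 3 replicated stages, as it was for 27.1% of tested probe sets. For XIH the ratio of replicate 2 to replicate 1 over the stages UNM, BCP and TCP was 1.52, 1.68 and 1.58, and for XIJ it was 1.72, 1.304 and 1.38. For XIE it was 0.80, 1.02 and 0.91. The ratio of 3' to 5' signal of the GAPDH control, a measure of how complete the labelled RNA was, moved with the same number: its log2 was 2.76 to 3.19 in replicate 2 and 0.63 to 1.06 in replicate 1 at these stages, and 1.21 on the MPG array. Its part in the levels of the myosin genes was not tested.

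Other genes of the actin-myosin system were looked up by symbol in the same annotation. Of 63 listed (other myosins, actins, actin-binding proteins and partners of myosin), 8 were matched to a probe set annotated to them alone and 7 were tested, and the rest were not analysed here. At TCP over BCP 5 of the 7 were called higher and 2 lower, beside 19.0% and 37.5% of all probe sets, and at TCP over UNM 5 were called higher and 1 lower, beside 20.9% and 39.7%. VIIIB, the 1 myosin of class VIII matched, belongs to a class of motors found at the plasma membrane and endosomes. Its signals were 49.4 and 41.1 for UNM, 48.2 and 37.3 for BCP, 196 and 205 for TCP and 457 for MPG. It was near the minimum at both early stages, and its TCP and MPG arrays stood clear of them and of each other. The rise was 4.72-fold for TCP over BCP (limma adjusted p = 0.00037) and a further 2.28-fold for MPG over TCP (0.039). The latter step rests on 1 MPG array and passed only with both TCP arrays.

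The actins of reproductive tissue, ACT11 and ACT12, rose 5.80-fold and 2.93-fold at TCP over BCP (limma adjusted p = 0.0017 and 0.0021). The LIM-domain proteins PLIM2a and PLIM2b, which bundle actin in pollen, rose 26.8-fold and 8.67-fold (8.1e-05 and 0.00010), and the more widely expressed WLIM2a and WLIM2b fell 6.68-fold and 1.72-fold (0.00014 and 0.016). WLIM1 stayed between 2.02 and 10.6 on all arrays and was not tested. Of these genes only VIIIB passed at MPG over TCP, the step where XIC and XIE were called lower. The calls of VIIIB, XIC and XIE at MPG over TCP all needed both TCP arrays.

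**Figure D4:**
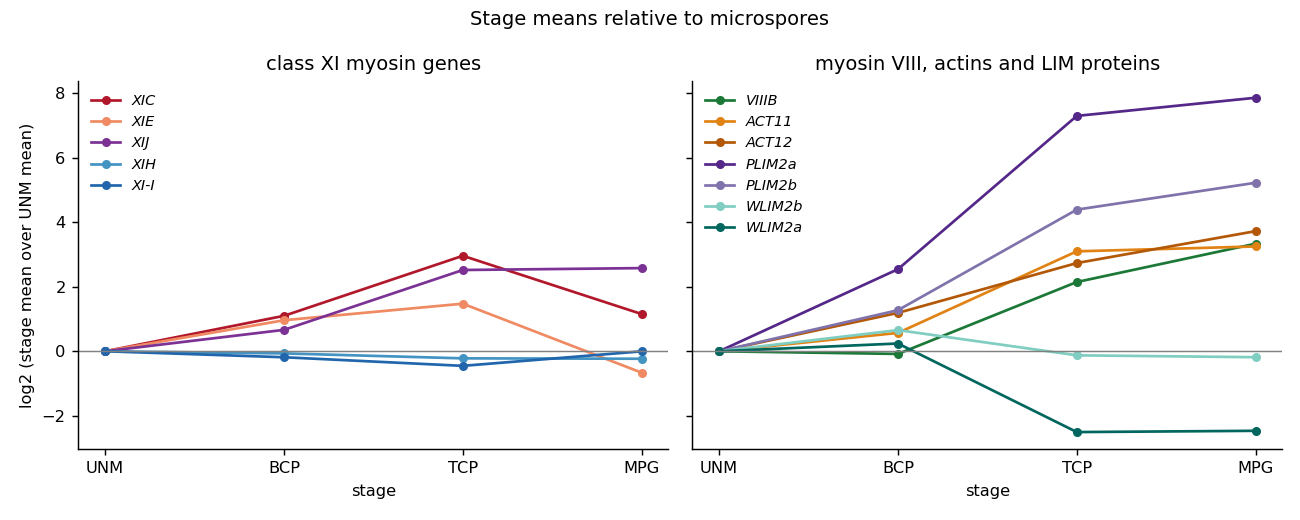
Log2 ratio of each stage mean to the UNM mean (vertical axis) over the 4 stages, for the 5 class XI myosin genes on the left and for VIIIB, 2 actins and 4 LIM genes on the right. On the right VIIIB, both actins and both PLIM2 genes were highest at MPG and both WLIM2 genes at BCP. On the left XIC and XIE were highest at TCP, XIJ at MPG, and XIH and XI-I at UNM.

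Over the 7 arrays the log2 signals of XIC correlated with those of XIJ (Pearson r = 0.84) and XIE (0.72), and those of XIE and XIJ less with each other (0.24). XIH and XI-I correlated at 0.77. These coefficients describe 7 points that share 4 stages and, in pairs, a replicate number.

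Genes with a course most like that of each motor were taken as the 3 with the smallest root mean square difference of log2 signal over the 7 arrays, each gene first centred on its own mean, among 8243 tested probe sets listed with 1 gene. A shared course on these arrays follows from this choice. For XIC the 3 genes were AT3G22050 (0.17), AT1G27930 (0.20) and AT3G27770 (0.20). AT1G27930, for instance, gave 119 and 158 for UNM, 292 and 288 for BCP, 1082 and 1062 for TCP and 210 for MPG, with the same peak at TCP. For XIE they were AT2G35840 (0.15), AT2G45600 (0.19) and AT1G73570 (0.22). AT2G35840 read 255 and 264 for UNM, 439 and 497 for BCP, 607 and 629.8 for TCP and 151 for MPG, which like XIE was lowest in mature pollen.

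For XIJ the nearest genes were AT5G18550 (0.16), AT5G21050 (0.16) and AT3G07870 (0.16), and AT5G21050 read 89.4 and 106 for UNM, 159.7 and 189.8 for BCP, 486 and 703 for TCP and 652 for MPG. All 3, chosen for their likeness to XIJ, were far higher on the TCP and MPG arrays than on the earlier ones. For XIH they were AT5G02980 (0.072), AT2G20050 (0.11) and AT5G27730 (0.11), all brighter in replicate 2 at each of the 3 stages. For XI-I they were AT2G27900 (0.075), ATG8D (0.10), which encodes a small protein of autophagy, and AT3G27325 (0.10). No motor was among the 3 nearest genes of another. XIJ came closest to XIC at 0.65, with 197 genes nearer to XIC and 534 nearer to XIJ. XI-I came closest to XIH at 0.21, with 94 genes nearer to XIH and 161 nearer to XI-I.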

How the data were processed

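From total RNA of isolated spores the authors had made cDNA with an oligo(dT) primer. Biotin-labelled cRNA transcribed from it had been hybridized to ATH1 arrays. The deposited intensity values are linear, 1 per probe set and array, without detection calls, and as deposited by the authors they have the same trimmed mean (2% left out at each end) on every array. The study's methods name dChip for normalization, but no source used here ties it to these deposited values.

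After removal of 64 control probe sets, the other 22746 were rescaled to a trimmed mean of 100, by factors of 1.0057 to 1.0084. Signals under 20 were raised to 20, and probe sets with 40 or more on at least 1 array were tested with limma 3.58.1 in R 4.3.3 on log2 values (stage as the only term, 3 residual and 2.77 prior degrees of freedom, checked on simulated data). The spread is that between arrays of separately grown plants, from which differences of labelled RNA between replicate numbers cannot be told apart. The MPG array adds nothing to it, and the number of arrays limits the precision. Summaries used Python 3.11.15, numpy 2.4.6 and pandas 2.3.3.

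Genes were named from the array's annotation table and the TAIR10.1 gene table. All 5 members matched. The genes, the lists and the pollen-type grouping were chosen with earlier results of these data known. Named genes are the members, the measured genes of the actin-myosin lists and the 3 genes most like each member. No symbols of the lists of other class XI myosins and of myosin partners were matched. Replicate numbers come from the array titles. The difference between replicates correlated between stages at 0.43 (UNM and BCP), 0.22 (UNM and TCP) and 0.28 (BCP and TCP) over 14364 probe sets, so the numbers were taken to pair the arrays and a fit with this block was an alternative. MPG has 1 array, numbered 1. Other alternatives were the scaling (with spiked controls, chosen after seeing the data), the floor, the filter, the variance model and leaving out each array.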

Additional observations from a re-analysis of the deposited data

How the results depend on the processing

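XIC, XIE and XIJ were called higher at TCP over UNM under all 8 planned settings and without any 1 array. With scaling from spiked controls, chosen after seeing the data, XIE was not (log2 change 1.24, adjusted p = 0.25). At TCP over BCP, XIC and XIJ were called under all 8 planned settings, and XIE as well with the replicate block, a floor of 40, a minimum of 80 and an intensity trend. Without any 1 array 1 to 2 members were called higher, the 1 being XIC without TCP replicate 2, and with spiked controls 0. At MPG over TCP the 2 members called lower were 0 to 2 without 1 array (0 without either TCP array) and 0 with spiked controls, where XIC changed by -1.70 and XIE by -2.03. At MPG over UNM, 1 member, XIE, was called lower under quantile normalization, a floor of 40, a minimum of 80, the replicate block and the intensity trend, and 0 to 1 without 1 array. With spiked controls 1 member, XIJ, was called higher there, and XIC was not (1.04, adjusted p = 0.50). At BCP over UNM the members called higher were 1 under quantile normalization (XIE), 1 with the replicate block (XIC), 2 with a minimum of 80 and 2 with the intensity trend, and 0 without any 1 array. The replicate block changed no other call of a member. Relative levels of the spiked controls were 0.53 to 0.96 in replicate 1 and 1.33 to 1.47 in replicate 2 of UNM, BCP and TCP, and 1.06 on the MPG array, and their part in the lost calls was not tested.

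The share of all probe sets called was 1.09% at BCP over UNM without a filter, 5.40% with a minimum of 80 and 0.275% with spiked controls. At TCP over BCP it was 29.0% without a filter and 22.7% with spiked controls, at MPG over TCP 7.63%, 22.7% with a minimum of 80 and 0.0066% with spiked controls, at TCP over UNM 32.4% and 26.1%, and at MPG over UNM 33.2% and 18.6%. Without 1 array the shares ranged over 0.0% to 3.05% at BCP over UNM, 44.4% to 59.0% at TCP over BCP, 0.0% to 6.71% at MPG over TCP, 49.8% to 62.9% at TCP over UNM and 52.1% to 59.9% at MPG over UNM. The share was 0.0% at MPG over TCP without either TCP array, and at BCP over UNM without any 1 UNM, BCP or TCP array. Quantile normalization moved the median change at TCP over BCP to 0.01, against -0.33 on the scaling reported. The genes most like each member depend on the measure: by Pearson correlation 2 of the 3 were shared for XIC and XIH, 1 for XIE and XIJ and 0 for XI-I.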
